A study of Mus musculus with 5 samples.

Results

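Described here are 10 genes of the immediate-early response and of ERK feedback. They are the AP-1 subunits FOS, FOSB, JUN, JUNB and JUND, the other immediate-early genes EGR1 and IER2, and the phosphatases DUSP1, DUSP5 and DUSP6. They were taken by gene name, and each matched 1 of the 50867 rows of the deposited table. The RNA came from lentivirus-infected Ba/F3, a pro-B cell line of the mouse that grows on interleukin-3. The 5 libraries are labelled PMSCV (the name of an expression vector), S_PXT1, S_PXT1_K118R, WT and WT_K118R, where K118R names a lysine to arginine substitution, and the labels do not spell out S or WT. The labels give neither the cytokine in the medium nor the time after infection or feeding. With 1 library a group, nothing here can be set against replicate spread, and p-values are not given. Intervals are exact at 95% and reflect counting alone. Without molecular identifiers, several reads can come from 1 molecule.

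Immediate-early genes are switched on within minutes of a growth factor or cytokine signal, without new protein synthesis, by transcription factors that are already in the cell. The signal travels through RAS, RAF, MEK and ERK to serum response factor and its partners, and the induced FOS and JUN proteins pair to form the transcription factor AP-1. Dual-specificity phosphatases induced by the same signal remove phosphate from ERK and related kinases and so shut it off again. In cells that depend on interleukin-3, the receptor for that cytokine is a main input to this pathway.

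The table names human genes although the cells are mouse, so each count is of reads that the deposited table places on a human gene. Totals ran from 250409 to 351693 counts per library, and 1 count was worth 2.92 to 3.93 CPM, the usual depth-scaled unit, here on the scaled library size. Among 20 markers of Ba/F3 and early lymphoid cells GATA2 and IKZF1 were counted in every library and SPI1 at 113 to 173 counts in 4 of them but at 1 with WT_K118R, whereas IL3RA, CD79A and CD79B were at 0 in all 5 libraries, and CSF2RB had at most 1 count. The libraries also stood apart in human tissue-type genes. The 20 squamous epithelium markers summed to 428 counts with PMSCV, 1154 with WT and 704 with WT_K118R, against 1 with S_PXT1 and 5 with S_PXT1_K118R. The 13 prostate luminal markers summed to 269, 267 and 242 counts in the same 3 libraries, against 2 and 0. Smooth muscle markers (10 genes) gave 96, 364 and 35 counts against 1 and 6, plasma cell markers (10 genes) 740, 492 and 27 against 2 and 2, and fibroblast and endothelial markers (14 genes) 650, 673 and 971 against 285 and 290.

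The 10 genes together had 453 counts over the 5 libraries, and JUNB supplied 61.6% of them. DUSP6 followed with 58 counts, DUSP5 with 36 and DUSP1 with 26. JUND had 14, JUN 12, IER2 10, FOS and EGR1 7 each, and FOSB 4. All 10 passed the filter at a mean of 1 CPM, but JUNB alone reached a mean of 20 counts. For FOS, FOSB, JUN, JUND, EGR1 and IER2, a 2-fold difference between 2 libraries can rest on a few reads. All 10 genes had at least 1 count with PMSCV and with WT, 9 with WT_K118R, 7 with S_PXT1 and 5 with S_PXT1_K118R. Of all 50867 genes, 11492 had a count with PMSCV, 11712 with WT and 11504 with WT_K118R. The number was 7393 with S_PXT1 and 7044 with S_PXT1_K118R.

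**Figure D1:**
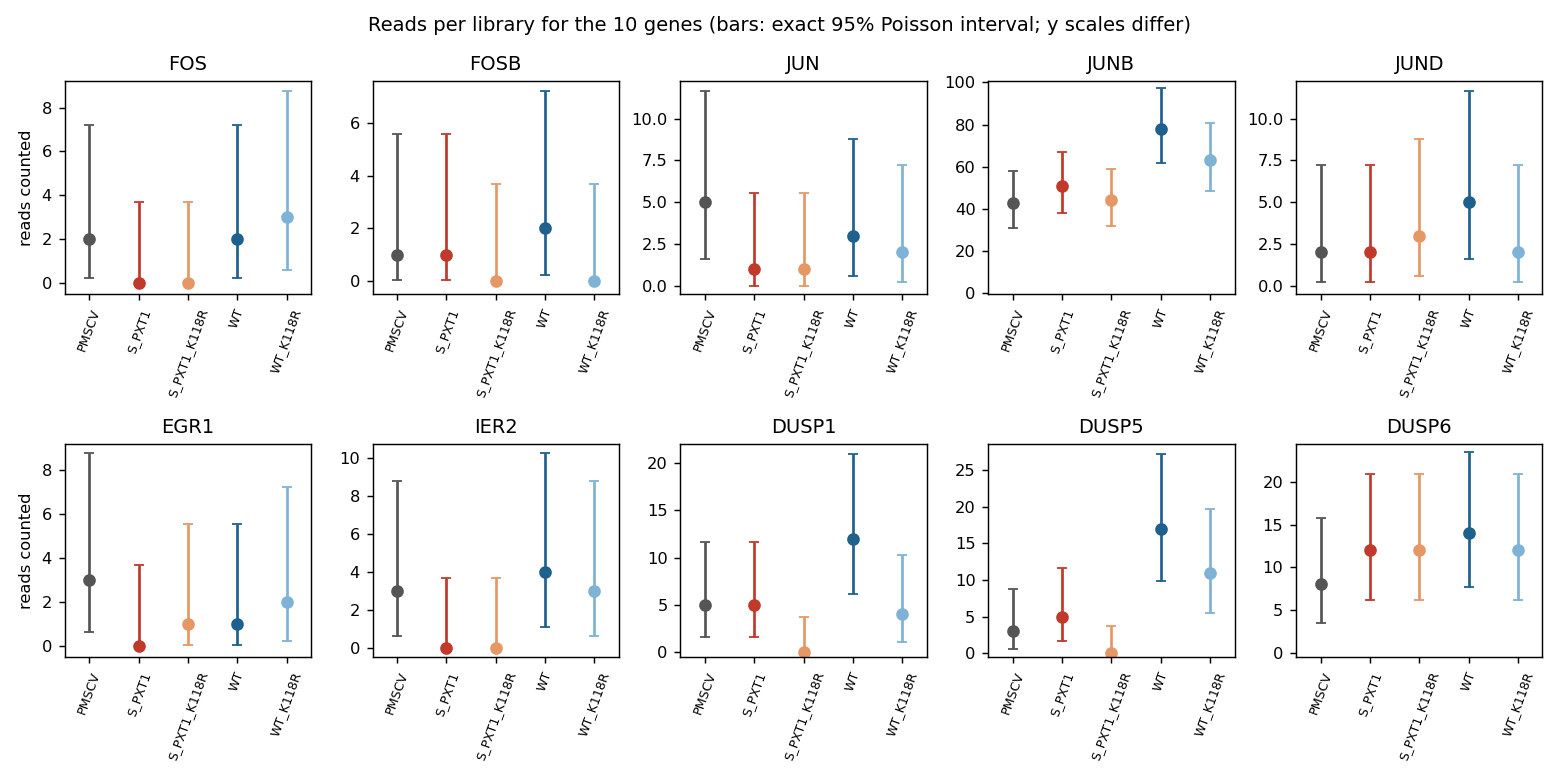
Reads counted for each of the 10 genes (y axis, own scale per panel) in each library (x axis), with the exact 95% Poisson interval. JUNB lies between 43 and 78 reads in every library, while the intervals of FOS, FOSB, JUND, EGR1 and IER2 overlap across all 5 libraries.

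JUNB, an AP-1 subunit that can restrain the activity of JUN, was the only one of these genes counted well in every library. Its human model is ENSG00000171223, at 12791496 to 12793315 on chromosome 19 of a build not named in the sources. HOOK2, with 11 counts in all, overlaps it on the opposite strand, and since the strand setting is unknown their reads may not be fully separated. JUNB had 43 counts with PMSCV, 51 with S_PXT1, 44 with S_PXT1_K118R, 78 with WT and 63 with WT_K118R. The scaled levels were 153, 199, 173, 228 and 187 CPM in that order. PMSCV was lowest and WT highest, and the highest level was 1.49-fold the lowest. In such bulk RNA, fewer cells expressing a gene and less RNA per cell cannot be told apart. The distance between the highest and lowest library was 0.57 on the log2 scale for JUNB, and the median over the 393 genes with a mean of 40 to 80 counts was also 0.57. In the order PMSCV, S_PXT1_K118R, WT_K118R, S_PXT1 and WT, every neighbour lay within the counting interval of the next.

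JUNB was 1.49-fold higher with WT than with PMSCV (95% interval 1.02 to 2.22). The interval reached below 1 when library totals replaced the scaled sizes, at 1.38-fold (0.94 to 2.05). The ratio over PMSCV was 1.30 (0.85 to 2.0) for S_PXT1, 1.22 (0.82 to 1.84) for WT_K118R and 1.13 (0.73 to 1.76) for S_PXT1_K118R. These 4 ratios share the PMSCV library, so its low level enters each of them. JUNB was near equal between the constructs, with a ratio of 0.87 (0.60 to 1.26) for S_PXT1 over WT and 0.93 (0.62 to 1.38) for S_PXT1_K118R over WT_K118R. The libraries with the substitution held slightly less JUNB in both backgrounds, 0.87 (0.57 to 1.33) of S_PXT1 and 0.82 (0.58 to 1.16) of WT, and neither interval excludes equal levels.

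The genes whose levels followed JUNB most closely over the 5 libraries were TET3, LYPLA2 and ACTN1. TET3 is a methylcytosine dioxygenase, LYPLA2 an acyl-protein thioesterase and ACTN1 an actin cross-linker. Likeness was the root mean square difference of log2(CPM + 1), each gene centred on its own mean, and came to 0.05 for all 3 of them, out of 1544 genes compared. With 5 libraries and a flat pattern such closeness is a description only.

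The other JUN family genes were near the limit of counting. JUN, the partner of FOS in the classic AP-1 dimer, had 5 counts with PMSCV, 1 with S_PXT1, 1 with S_PXT1_K118R, 3 with WT and 2 with WT_K118R. PMSCV was highest, but its ratio to S_PXT1 of 4.56 had an interval from 0.51 to 216. JUND, the subunit held at a steadier level in resting cells, had 2 counts with PMSCV, 2 with S_PXT1, 3 with S_PXT1_K118R, 5 with WT and 2 with WT_K118R. No ratio of JUN or JUND between 2 libraries had an interval that excluded 1.

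FOS and FOSB, which bind DNA only as partners of a JUN protein, were among the least counted. FOS had 2 counts with PMSCV, 2 with WT and 3 with WT_K118R, and 0 with S_PXT1 and in S_PXT1_K118R. FOSB had 1 count with PMSCV, 1 with S_PXT1 and 2 with WT, and 0 with S_PXT1_K118R and in WT_K118R. Where nothing was counted, a floor of 3 counts was set, which is 8.77 to 11.8 CPM by library, and the exact interval of a 0 reaches 3.69 counts. FOSB also overlaps ERCC1, with 4 counts, on the opposite strand. No fold is given for FOS or FOSB, because every library was at or under that floor.

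EGR1, a zinc finger transcription factor induced through serum response factor, had 3 counts with PMSCV, 0 with S_PXT1, 1 with S_PXT1_K118R, 1 with WT and 2 with WT_K118R. IER2, a small nuclear protein of the early response, had 3 counts with PMSCV, 4 with WT and 3 with WT_K118R, and 0 with S_PXT1 and in S_PXT1_K118R. FOS and IER2 were thus counted in PMSCV, WT and WT_K118R and were at 0 in both S_PXT1-labelled libraries. Of the 1842 genes with 7 to 10 counts over the 5 libraries, taken by that total alone, 42.2% were at 0 in both of these libraries. The bounds were set around the totals of FOS, EGR1 and IER2 after their counts were seen.

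FOS, FOSB, EGR1 and IER2, a group also formed after the counts were seen, summed to 9 counts with PMSCV, 9 with WT and 8 with WT_K118R, against 1 with S_PXT1 and 1 with S_PXT1_K118R. Their summed levels were 32.0, 26.3 and 23.7 CPM, against 3.90 and 3.93. The squamous markers divided the libraries in the same way, at 1522, 3375 and 2086 CPM against 3.90 and 19.7, with KRT5 at 0 in both S_PXT1-labelled libraries. The prostate markers stood at 957, 781 and 717 CPM against 7.80 and 0, with KLK3 at 0 in both. The group of 4 genes was chosen with its counts known, so the division of its sum between libraries is no separate result. FOSB by itself did not follow that division, with 1 count with S_PXT1 and 0 with WT_K118R. The part of tissue-type reads in the counts of these 4 genes was not tested. Low expression of these genes in the S_PXT1-labelled libraries cannot be told apart from anything else that these libraries share.

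**Figure D2:**
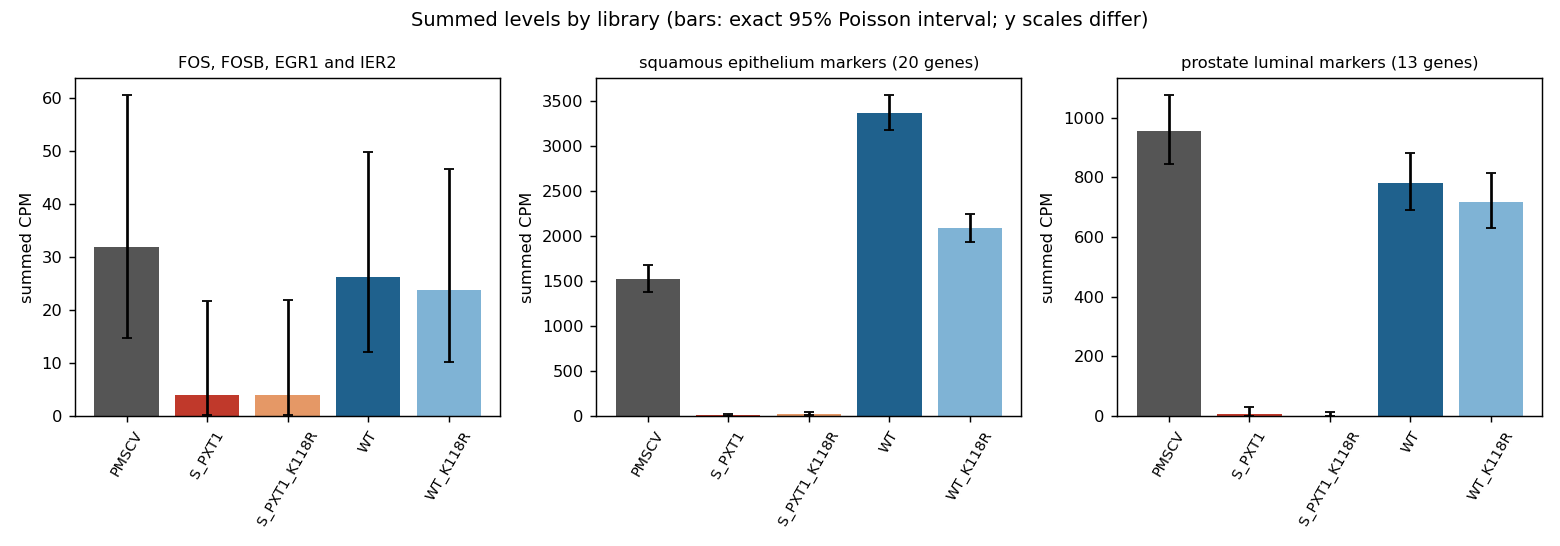
Summed CPM (y axis, own scale per panel) in each library (x axis) for FOS, FOSB, EGR1 and IER2, for 20 squamous epithelium markers and for 13 prostate luminal markers, with the exact 95% Poisson interval of each sum. The group of FOS, FOSB, EGR1 and IER2 was formed after their counts were seen. The S_PXT1 and S_PXT1_K118R libraries are lowest in all 3 panels.

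The phosphatases held more reads than the transcription factors other than JUNB. DUSP6, a cytoplasmic phosphatase selective for ERK, was the steadiest of the low-count genes. It had 8 counts with PMSCV, 12 with S_PXT1, 12 with S_PXT1_K118R, 14 with WT and 12 with WT_K118R, and its highest level was 1.66-fold its lowest. The largest DUSP6 ratio, S_PXT1_K118R over PMSCV, was 1.66 with an interval of 0.62 to 4.68. Its human model, ENSG00000139318, lies on chromosome 12 at 89347232 to 89353271. All 8 DUSP6 intervals included equal levels.

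DUSP5, a nuclear phosphatase that anchors ERK, had the largest of these ratios. Its human model is ENSG00000138166, on chromosome 10 at 110497838 to 110511544. It had 3 counts with PMSCV, 5 with S_PXT1, 0 with S_PXT1_K118R, 17 with WT and 11 with WT_K118R. The libraries labelled WT were therefore highest and S_PXT1_K118R lowest. DUSP5 was 4.66-fold higher with WT than with PMSCV (1.35 to 24.8) and 3.06-fold higher with WT_K118R than with PMSCV (0.81 to 17.1). Between constructs it was 2.55-fold lower with S_PXT1 than with WT (0.90 to 8.84). With the substitution it was 2.76-fold lower in S_PXT1_K118R than in WT_K118R when a floor of 3 counts stood in for the 0. That value is no lower bound, and the exact interval of the ratio itself begins at 1.89-fold lower.

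DUSP1, a nuclear phosphatase that acts on p38 and JNK as well as ERK, had 5 counts with PMSCV, 5 with S_PXT1, 0 with S_PXT1_K118R, 12 with WT and 4 with WT_K118R. WT was highest, 1.97-fold above PMSCV (0.65 to 7.15), and 2.96-fold above WT_K118R (0.90 to 12.6). DUSP1 and DUSP5 were both at 0 with S_PXT1_K118R. Of the 1528 genes with 20 to 40 counts over the 5 libraries, 26.2% were at 0 in that library. Those genes were taken by total count alone. They include tissue-type genes such as ACTA2, at 0 in both S_PXT1-labelled libraries. DUSP1 and DUSP5 each had 5 counts with S_PXT1, and how many of the genes at 0 with S_PXT1_K118R also kept counts there was not computed. Why the 2 phosphatases were at 0 was not tested. The human model of DUSP1 is ENSG00000120129, on chromosome 5 at 172768090 to 172771195. Those bounds were again set after the counts were seen.

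The 3 phosphatases summed to 16 counts with PMSCV, 22 with S_PXT1, 12 with S_PXT1_K118R, 43 with WT and 27 with WT_K118R. Their sum was 2.21-fold higher with WT than with PMSCV (1.22 to 4.2). The sum with S_PXT1_K118R was 0.55 of that with S_PXT1 (0.25 to 1.16), and the sum with WT_K118R was 0.64 of that with WT (0.38 to 1.05). WT was highest and S_PXT1_K118R lowest, and WT over PMSCV was the only one of the 8 phosphatase ratios whose interval excluded 1.

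The mouse promoters of DUSP5 and DUSP1 are shown because these were the genes with over 20 counts in all that were at 0 with S_PXT1_K118R, and each holds a response element of the early pathway. The windows searched run from 250 bases before to 50 bases after the RefSeq start in build GRCm38.p6, and 8 of the 10 genes had one, with EGR1 and IER2 not among them. The motifs, searched on both strands, were the cyclic AMP response element TGACGTCA, the AP-1 site TGANTCA and the CArG box, the site of serum response factor. The stretches below are 5′ to 3′ on the strand of the gene, with matched letters in capitals.
Dusp5 (chr19:53529043-53529102, plus strand): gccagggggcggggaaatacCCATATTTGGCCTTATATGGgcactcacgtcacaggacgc
Dusp1 (chr17:26508582-26508641, minus strand): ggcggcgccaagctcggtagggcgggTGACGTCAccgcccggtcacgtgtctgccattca
The Dusp5 stretch holds 2 CArG boxes back to back, from 82 to 63 bases before the start, and 1.63% of all 32851 windows hold at least 1. The Dusp1 stretch holds the cyclic AMP response element, from 143 to 136 bases before the start, which 1.79% of all windows hold. Of the 8 windows searched, the CArG box was found in 1 and the cyclic AMP response element in 1, which are those shown. The AP-1 site was found in 0 of the 8 windows, against 7.81% of all windows. A match is a description of letters and not a bound site.

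Summed over all 10 genes, the count was 75 with PMSCV, 77 with S_PXT1, 61 with S_PXT1_K118R, 138 with WT and 102 with WT_K118R, which is 267, 300.2, 239.8, 404 and 302 CPM. WT was highest, and no ratio computed among the other 4 libraries had an interval that excluded 1. The sum was 1.51-fold higher with WT than with PMSCV (1.13 to 2.03). The ratio over PMSCV was 1.13 (0.81 to 1.57) for S_PXT1, 0.90 (0.63 to 1.28) for S_PXT1_K118R and 1.13 (0.83 to 1.55) for WT_K118R. Against WT, the sum was 0.74 (0.56 to 0.99) with S_PXT1 and 0.75 (0.57 to 0.97) with WT_K118R. The S_PXT1 interval reached above 1 with DESeq2 size factors, at 0.78 (0.58 to 1.04), and with library totals, at 0.76 (0.57 to 1.01). S_PXT1_K118R stood at 0.80 of S_PXT1 (0.56 to 1.13) and at 0.79 of WT_K118R (0.57 to 1.1).

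Without JUNB, the other 9 genes summed to 32 counts with PMSCV, 26 with S_PXT1, 17 with S_PXT1_K118R, 60 with WT and 39 with WT_K118R. That sum was 0.58 of WT with S_PXT1 (0.35 to 0.93). It was 1.54-fold higher with WT than with PMSCV (0.99 to 2.45) and with WT_K118R was 0.66 of WT (0.43 to 1.0), and neither of these intervals excluded 1 once JUNB was left out. The sum was 0.59 of PMSCV with S_PXT1_K118R (0.31 to 1.09), lower than the ratio of 0.90 with JUNB included.

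**Figure D3:**
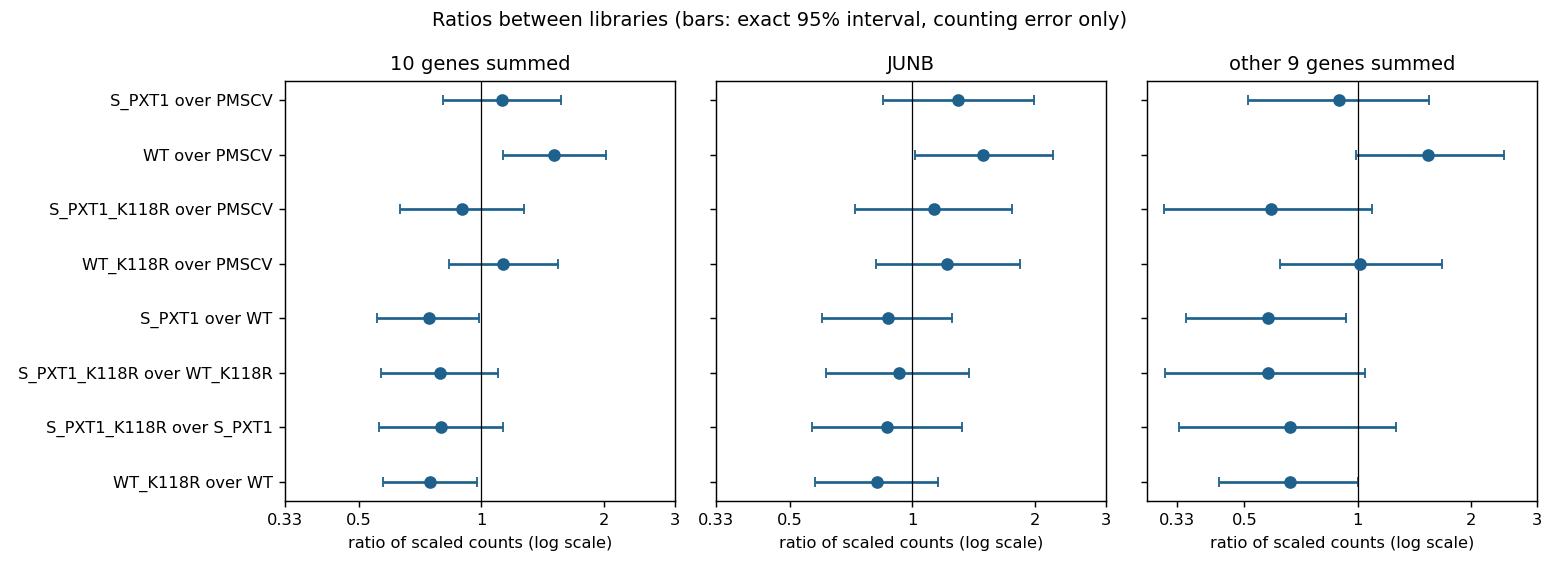
Ratio of scaled counts (x axis, log scale) for 8 pairs of libraries (y axis), for the 10 genes summed, for JUNB and for the other 9 genes summed, with exact 95% intervals for counting error. For the 10 genes the interval lies above 1 for WT over PMSCV, and below 1 for S_PXT1 over WT and for WT_K118R over WT.

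The number of these genes past 2-fold on log2(CPM + 1) is read against the share of all 13352 genes at a mean of at least 1 CPM that were past it. With S_PXT1 over PMSCV, 4 of 10 were lower and 0 higher, where 43.8% of all genes were lower and 8.64% higher. With WT over PMSCV, 1 was higher (DUSP5) and 1 lower (EGR1), against 20.3% and 23.2%. With S_PXT1_K118R over PMSCV, 7 were lower and 0 higher, against 44.9% and 8.39%. The 7 included FOS, FOSB, EGR1, IER2 and DUSP5, each compared between counts at or under the floor in both libraries. With WT_K118R over PMSCV, 1 was higher and 2 lower, against 19.9% and 24.0%.

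With S_PXT1 over WT, 4 were lower and 0 higher, against 42.5% and 9.02% of all genes. The same counts were found with S_PXT1_K118R over WT_K118R, against 44.0% and 8.94%. With S_PXT1_K118R over S_PXT1, 3 were lower and 1 higher, against 17.6% and 15.2%. With WT_K118R over WT, 3 were lower and 0 higher, against 20.9% and 19.2%. JUNB was past 2-fold in 0 of the 8 comparisons. Of the 1547 genes averaging 20 counts or more, the share past 2-fold in either direction was 11.3% with S_PXT1 over PMSCV, 5.37% with WT, 11.4% with S_PXT1_K118R and 5.56% with WT_K118R over the same vector. It was 10.1% with S_PXT1 over WT, 10.6% with S_PXT1_K118R over WT_K118R, 8.14% with S_PXT1_K118R over S_PXT1 and 5.3% with WT_K118R over WT.

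**Figure D4:**
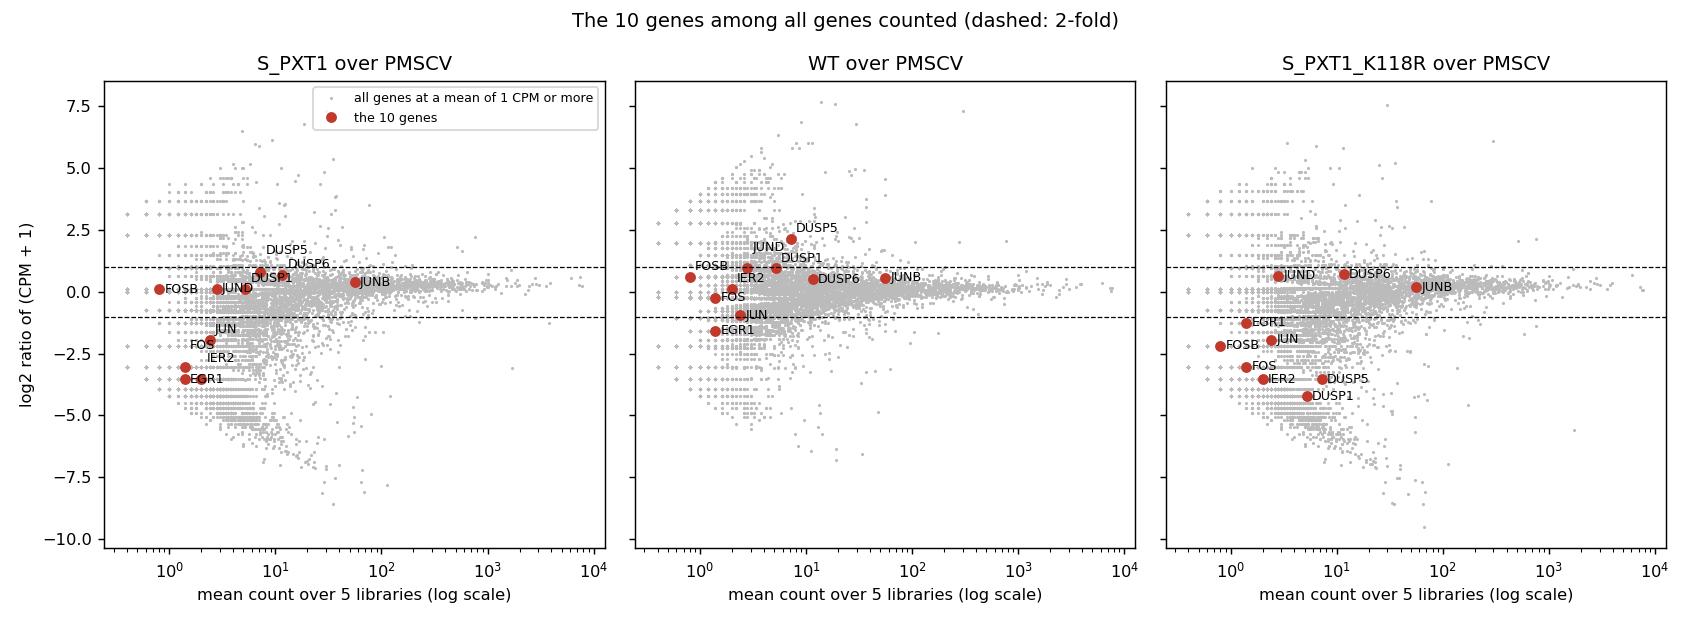
Log2 ratio of (CPM + 1) over PMSCV (y axis) against the mean count over 5 libraries (x axis, log scale) for S_PXT1, WT and S_PXT1_K118R, with the 10 genes in red over all 13352 genes in grey and dashed lines at 2-fold. JUNB lies inside the 2-fold lines in all 3 panels, and FOS, EGR1 and IER2 lie in the wide cloud of genes with few counts.

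The median log2 ratio of the 10 genes was 0.11 for S_PXT1 over PMSCV, against -0.56 over all 13352 genes, and 0.54 for WT over PMSCV, against -0.03. It was -2.06 for S_PXT1_K118R over PMSCV, against -0.61. The last value rests on FOSB and JUN, the genes in the middle of the order, with at most 5 counts in any library. It was -0.23 for WT_K118R over PMSCV, against -0.05, and -0.91 for S_PXT1 over WT, against -0.48. It was -0.43 for WT_K118R over WT, against 0.01, while members and all genes had the same median for S_PXT1_K118R over WT_K118R, at -0.49, and for S_PXT1_K118R over S_PXT1, at 0.00.

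The rest of the pathway was read from 5 lists with 102 genes, of which 91 passed the filter and 19 averaged 20 counts or more. Among these 19, past 2-fold were 1 higher and 1 lower with S_PXT1 over PMSCV, 2 and 3 with WT over PMSCV, 1 and 0 with S_PXT1_K118R over PMSCV, and 1 and 0 with WT_K118R over PMSCV. Between the constructs it was 0 higher and 1 lower without the substitution, and none in either direction with it. Within a construct it was none for S_PXT1_K118R over S_PXT1, and 1 higher and 1 lower for WT_K118R over WT. Of the 1547 genes at the same mean, the share past 2-fold in either direction was 11.3%, 5.37%, 11.4% and 5.56% over PMSCV, in that order. It was 10.1% and 10.6% between the constructs, without and with the substitution. Within a construct it was 8.14% for S_PXT1_K118R over S_PXT1 and 5.3% for WT_K118R over WT.

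Among 13 transcriptional regulators upstream of the immediate-early genes, 3 averaged 20 counts or more. SRF, serum response factor itself, had 208 counts with PMSCV, 237 with S_PXT1, 258 with S_PXT1_K118R, 326 with WT and 296 with WT_K118R. PMSCV was lowest, and SRF was 1.37-fold higher with S_PXT1_K118R (1.14 to 1.65) and 1.29-fold with WT (1.08 to 1.54), where the median log2 ratio of the 1547 better-counted genes was 0.15 and 0.11. CREB1, which binds the cyclic AMP response element, had 41 counts with PMSCV, 74 with S_PXT1, 65 with S_PXT1_K118R, 85 with WT and 69 with WT_K118R. It was 1.98-fold higher with S_PXT1 than with PMSCV (1.33 to 2.97) and 1.70-fold with WT (1.16 to 2.54). Of all 13 regulators 7 were lower and 0 higher by 2-fold with S_PXT1 over PMSCV, against 43.8% and 8.64% of all genes, although their summed counts were 1.25-fold higher (1.08 to 1.44).

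Kinases and adaptors of the cascade, taken as a sum, differed little between libraries. The 30 genes from SHC1 and GRB2 to the kinases summed to 764 counts with PMSCV, 772 with S_PXT1, 799 with S_PXT1_K118R, 1021 with WT and 1031 with WT_K118R. Their summed ratio over PMSCV ran from 1.1 with WT (1.0 to 1.21) to 1.16 with S_PXT1_K118R (1.05 to 1.28). Between the constructs it was 1.01 (0.92 to 1.11) without and 1.03 (0.94 to 1.13) with the substitution. RPS6KA3, the ERK-activated kinase RSK2, had the most reads, 823 in all. SOS1, the exchange factor that loads RAS, and NF1, which unloads it, were 2.14-fold (1.22 to 3.85) and 2.03-fold (1.15 to 3.66) lower with WT than with PMSCV.

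Among the other feedback genes SPRED2, an inhibitor of RAF activation, was low in PMSCV alone. It had 14 counts with PMSCV, 31 with S_PXT1, 37 with S_PXT1_K118R, 50 with WT and 46 with WT_K118R. Its ratio over PMSCV was 2.43 (1.25 to 4.94) with S_PXT1, 2.92 (1.54 to 5.85) with S_PXT1_K118R, 2.94 (1.60 to 5.75) with WT and 2.74 (1.48 to 5.39) with WT_K118R, and all 4 share the PMSCV library. SPRED1, its paralog, had 49 to 64 counts in the 5 libraries. Over the 13 genes of this list that passed the filter, 3 were higher and 4 lower with WT over PMSCV, against 20.3% and 23.2% of all genes. With S_PXT1 over PMSCV, 1 was higher and 3 lower, against 8.64% and 43.8%.

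Among the other immediate-early genes, 2 regulators of mRNA decay differed between libraries. ZFP36L2, which binds AU-rich elements and hastens mRNA decay, had 66 counts with PMSCV, 65 with S_PXT1, 63 with S_PXT1_K118R, 184 with WT and 82 with WT_K118R. WT alone was high, 2.29-fold above PMSCV (1.72 to 3.09) and 2.21-fold above WT_K118R (1.70 to 2.91). ZFP36L1, its paralog, had 55 counts with PMSCV, 21 with S_PXT1, 29 with S_PXT1_K118R, 31 with WT and 56 with WT_K118R. It was 2.39-fold lower with S_PXT1 than with PMSCV (1.42 to 4.16) and 2.16-fold lower with WT than with PMSCV (1.36 to 3.47). NR4A2, an orphan nuclear receptor, was 2.03-fold higher with WT_K118R than with WT (1.08 to 3.96). Of the 24 genes of this list that passed the filter, 11 were lower and 2 higher with S_PXT1 over PMSCV, where 43.8% and 8.64% of all genes were. With WT over PMSCV, 9 were higher and 5 lower, against 20.3% and 23.2%. The other AP-1 factors were led by ATF2, a partner of JUN, with 121 to 155 counts in the 5 libraries.

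**Figure D5:**
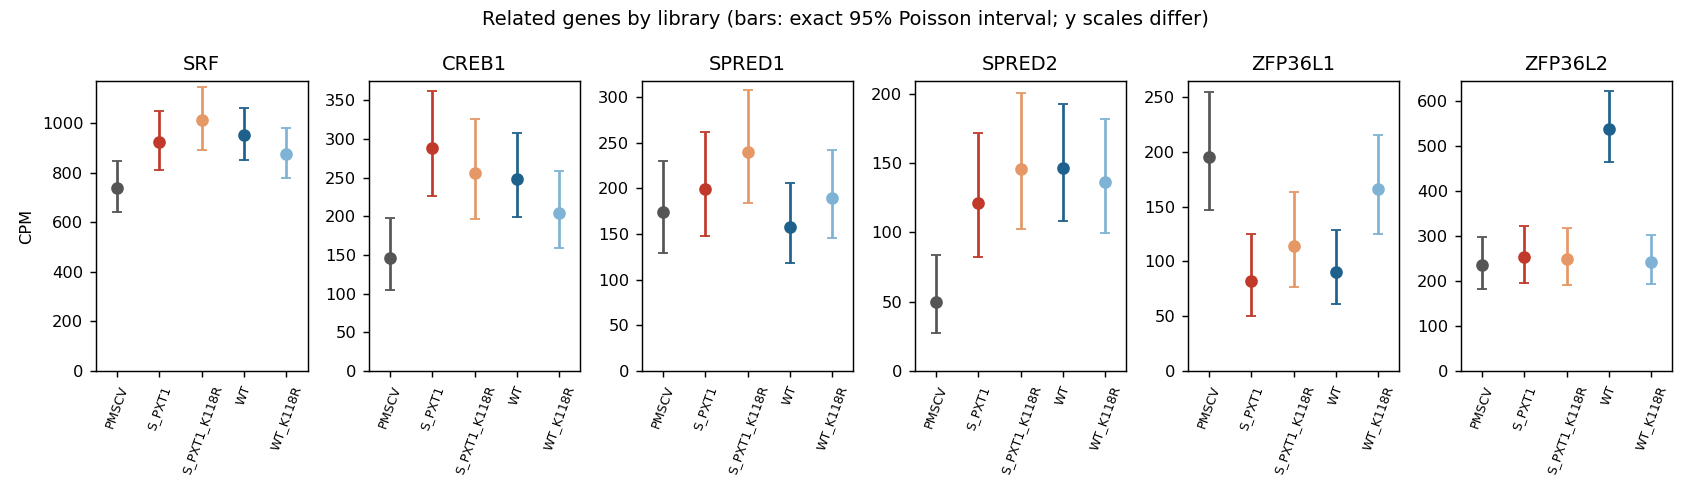
CPM (y axis, own scale per panel) in each library (x axis) of 6 related genes, with exact 95% Poisson intervals. SRF, CREB1 and SPRED2 are lowest in PMSCV, and ZFP36L2 is highest in WT.

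Levels of different genes can be compared only per length, on the authors' FPKM scale. JUNB had 88.5 to 122 FPKM in the 5 libraries. The gene length behind these values, worked back from counts and FPKM, was 1823 bases for JUNB, equal to its genomic span of 1820 within rounding. For FOS it was 9112 bases against a span of 3457, for FOSB 16525 against 7185 and for DUSP6 8179 against 6040. For IER2 it was 6321 against 4494 and for JUND 2367 against 1863. FPKM of FOS, FOSB, DUSP6, IER2 and JUND is therefore no per-length level of the transcript, and their rank against JUNB is not given.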

How the data were processed

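The authors deposited a single table holding, for every library, raw counts and FPKM, a value per kilobase of gene model and per library depth. HISAT2 2.2.1, cutadapt 1.9 and FastQC appear in the submitters' processing notes. Genome build, gene annotation, strandedness and counting program were not given in the sources used here. There were 0 value columns without a library, and totals were 250409 to 351693 counts. Library sizes were scaled by TMM in edgeR 4.0.16 under R 4.3.3. Ratios between 2 libraries used scaled counts without a pseudocount, with exact conditional 95% intervals, and calls used log2(CPM + 1) at 2-fold. Folds against 0 counts used a floor of 3 counts, and no fold was given where both libraries were at or under it. The code was tested on simulated data. Alternatives were DESeq2 1.42.0 size factors, library totals, FPKM, overlapping models summed, and other thresholds, pseudocounts and filters. Named were all 10 members, the 3 genes most like a member averaging 20 counts or more, and the most counted gene of each pathway list and of some marker lists. Of the 2 largest ratios per pathway list and comparison, only some are given. Left out were RASA1, BTG1, ETV6, MAP2K4, BRAF and DUSP16. Some of these had intervals that excluded 1, such as RASA1 with S_PXT1 over WT, at 1.56 (1.14 to 2.14). Any other named gene was chosen after its values were seen. Members and lists were chosen with earlier results of these data known.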

Additional observations from a re-analysis of the deposited data

How the results depend on the processing

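Counting depth is a limit: 9 of the 10 genes had a mean under 20 counts, and each group was 1 library. Another is that reads from mouse cells are counted on human genes, with tissue-type human genes that differ widely between libraries. How far the counts measure these genes in Ba/F3 was not tested, and no alternative below addresses it. Other scalings shifted all log2 ratios alike by at most 0.12, little beside the counting intervals, and 0 members had a same-strand overlapping model to add, so these alternatives could hardly move a single member's fold. Among summed folds, S_PXT1_K118R over PMSCV moved to 0.59 without JUNB. The number of members past the fold moved in 14 of 56 recalculations. With a filter at 5 CPM it was 2 with S_PXT1 over PMSCV, 1 with WT over PMSCV, 4 with S_PXT1_K118R over PMSCV, 2 with S_PXT1 over WT and 2 with S_PXT1_K118R over S_PXT1, since fewer genes entered. At 1.5-fold it was 6 with WT over PMSCV, 7 with S_PXT1 over WT and 5 with WT_K118R over WT. At 3-fold it was 1 with WT over PMSCV, 1 with WT_K118R over PMSCV and 1 with WT_K118R over WT. For WT over PMSCV it was 4 with a pseudocount of 0.1 CPM and 1 with 5 CPM, and for S_PXT1_K118R over S_PXT1 it was 2 with 5 CPM. No paired analysis was possible because each group is 1 library. Leaving out a replicate was not possible for the same reason.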

Other observations

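The genes in this paragraph were picked from the 102 pathway genes after their values were seen and do not show how frequent their pattern is. With S_PXT1 over PMSCV, 37 of the 91 pathway genes that passed the filter were lower by 2-fold, against 43.8% of all genes. MCL1, a survival protein with a short-lived mRNA, had 24 counts with PMSCV, 18 with WT and 31 with WT_K118R, against 3 with S_PXT1 and 4 with S_PXT1_K118R. NFE2L2, a stress-response factor, had 13, 11 and 7 counts with PMSCV, WT and WT_K118R, against 0 with S_PXT1 and 1 with S_PXT1_K118R. MAPK14, the p38 kinase, had 29 counts with WT and 16 with S_PXT1_K118R, against 2 to 3 in the other libraries.

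The gene length implied by FPKM exceeded 1.1 times the genomic span for 5 of the 10 members, against 7.18% of the 16237 genes with a count.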
